A study of Ovis aries with 60 samples.

Results

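The 20 libraries described here, of the 60 samples of the series, hold RNA from semen samples, labelled sperm, of 20 F2 rams. Of these rams, 10 came from the methionine line and 10 from the control line. A ram belonged to the methionine line when its title carried the letter T after the ram number and to the control line when it carried C. The grandsires (F0) were Polypay rams, of which those of the methionine line received rumen-protected methionine from weaning to puberty while their twin brothers, the grandsires of the control line, received the control diet without the supplement. The F2 rams themselves and their F1 sires, in both lines, ate the control diet, and all dams were untreated, so that of these diets only that of the grandsire differed between lines. Each line came from 5 F0 rams, each through 1 F1 son, and each F0 ram was represented by 2 F2 grandsons, which therefore share a sire and are not fully independent. The F0 sire was read from the number that follows the ram's own in the title of its methylation library and that matches an F0 ram, since no label names it outright. Rams are named by their sample titles, which end in T or C, and p-values measure the spread between these rams. Semen was collected by electroejaculation, kept in RNAlater, and treated with a lysis buffer meant to remove somatic cells before RNA was extracted. The comparison asks whether the RNA of these samples differs between grandsons of supplemented and of unsupplemented rams.

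Methionine is the precursor of S-adenosylmethionine, the methyl donor of the enzymes that methylate DNA, histones and RNA, and the methionine cycle returns the homocysteine that is left to methionine with the help of folate. Sperm transcribe little or nothing. The RNA they carry was made before their chromatin was packed with protamines, in spermatids, and semen also holds cells and RNA from the epididymis, the accessory glands, the urethra and prepuce, and leukocytes. In bulk RNA of this kind, fewer cells of a type and less RNA per cell cannot be told apart.

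Libraries held between 805830 and 13138000 counts (rounded to 5 digits), with a median of 4587100 in the methionine line and 3030000 in the control line. The study states a far narrower range of reads per library. These totals are therefore counts assigned to genes and do not measure sequencing depth. Of the 28525 genes in the table, 13577 reached the minimum of 15 counts in over 10 of the 20 libraries and were tested, and these took between 90.8% and 99.4% of the counts of a library. The study states a larger number of genes under the same minimum, and the reason for the difference was not tested. Levels are given as counts-per-million values (CPM) after TMM scaling, whose factors ran from 0.36 to 2.54. Log2 total counts did not differ detectably between the lines, with a mean of 21.9 ± 1.23 (SD, n = 10) in the methionine line and 21.8 ± 1.27 (SD, n = 10) in the control line (two-sided permutation test, p = 0.827, adjusted p = 0.891 over 4 measures). No 2 libraries were alike within sampling noise, the smallest chi-square per degree of freedom between any 2 being 10.5.

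The label sperm was checked against marker genes first. Of 37 late spermatid and sperm structure genes present in the table, 36 had at least 1 count in every library, among them PRM1 (protamine 1, which packs sperm chromatin), at 34.8 to 1531 CPM, ODF1 (an outer dense fibre protein of the tail), at 2.12 to 476 CPM, and AKAP4 (the main fibrous sheath protein), at 0.636 to 49.0 CPM. Of 30 squamous epithelium genes in the table, 29 were likewise found in every library, and of 23 macrophage and pan-leukocyte genes 22 were. KRT4, a keratin of wet stratified epithelium, reached from 10.4 to 21140 CPM, and PTPRC, the pan-leukocyte antigen CD45, from 15.9 to 1241 CPM. The libraries therefore held transcripts of spermatids, epithelium and leukocytes, in shares that varied widely between rams of either line. The lines were therefore also compared with the log2 summed CPM of the squamous epithelium and of the macrophage and pan-leukocyte genes as covariates, and the result stands below beside the fits without and with the first principal component.

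The first principal component (PC1) of log2 CPM held 55.4% of the variance between libraries and the second (PC2) 13.96%. The median tested gene had 43.8% of its variance along PC1 and 0.80% between the lines. At the high end of PC1 stood ram SpermRNA382T of the methionine line and ram SpermRNA485C of the control line, at 2.08 and 2.13 SD, and at the low end rams SpermRNA468C and SpermRNA400C of the control line and SpermRNA372T of the methionine line, at −1.29, −1.28 and −1.25 SD. Both extremes were thus occupied by both lines. Genes low at the high end included EMP1, MUC21, KRT4 and KRT78, all of stratified epithelium, and MUC21 ran from 38.4 CPM in ram SpermRNA485C to 65200 CPM in ram SpermRNA468C. Genes high there included CABS1, a calcium-binding protein of spermatids, from 49.3 CPM in ram SpermRNA400C to 8078 CPM in ram SpermRNA485C. PC1 averaged −0.04 ± 0.96 SD (SD, n = 10) in the methionine line and 0.04 ± 1.09 SD (SD, n = 10) in the control line, a difference of −0.08 SD units (two-sided permutation test, p = 0.870, adjusted p = 0.891 over 4 measures). PC2, highest in rams SpermRNA350C, SpermRNA426T and SpermRNA449C, differed by −0.06 SD units (permutation p = 0.891, adjusted p = 0.891). Neither composition axis separated the lines beyond the spread between rams.

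**Figure D1:**
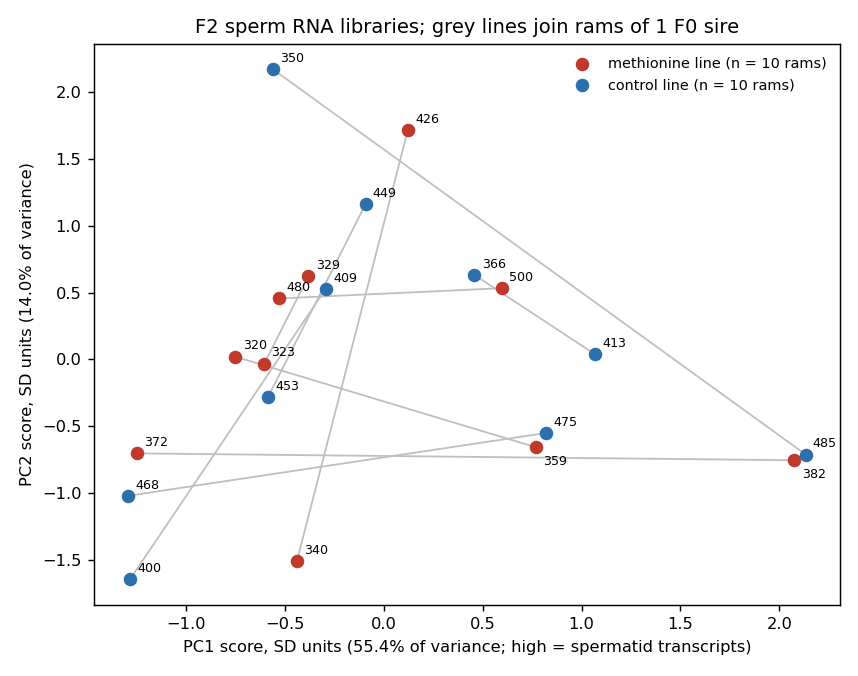
PC1 (x axis) and PC2 (y axis) scores of log2 CPM in SD units, 1 point for each of the 20 F2 rams, labelled with the number in its title and coloured by line, with a grey line joining the 2 rams of an F0 sire. Points of the lines are mixed along both axes, and rams SpermRNA382T (methionine line) and SpermRNA485C (control line) lie together at 2.08 and 2.13 SD.

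Grandsons of the same F0 ram were compared with other pairs of rams on both components, with no test. The 10 pairs of rams of a common F0 sire lay a median of 1.06 SD apart on PC1, against 1.04 SD for the 80 other pairs within a line and 0.899 SD for the 100 pairs across lines. On PC2 they lay a median of 0.666 SD apart, between 0.0514 and 3.23 SD, against 1.12 SD for the other pairs within a line and 0.974 SD across lines. Rams SpermRNA372T and SpermRNA382T, both of F0 sire 9 in the methionine line, stood at −1.25 and 2.08 SD and had a correlation of log2 CPM over genes of 0.173. Rams SpermRNA350C and SpermRNA485C, both of F0 sire 6 in the control line, stood at −0.56 and 2.13 SD with a correlation of 0.146. These 2 pairs held the largest PC1 gaps of the 10, whereas on PC2 the first of them held the smallest gap, 0.0514 SD, and rams SpermRNA340T and SpermRNA426T the largest, 3.23 SD. The most alike pair, rams SpermRNA323T and SpermRNA329T of F0 sire 23, had a correlation of 0.863. The correlations are across genes, which are not independent replicates, and are given as descriptions.

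The plot of list sums by ram shows how far single gene groups followed PC1. The summed level of 30 late spermatid genes ran from 917 to 42980 CPM in the methionine line, with a median of 4231, and from 598 to 36610 CPM in the control line, with a median of 2717. The gene CCDC168 alone held 33190 and 23540 CPM of the highest sums, those of rams SpermRNA359T and SpermRNA485C. It held 414 and 328 CPM of the lowest, those of rams SpermRNA480T and SpermRNA468C. These ranges thus rest largely on 1 gene. The 26 squamous epithelium genes summed to between 348 and 45390 CPM in the methionine line, with a median of 22120, and to between 275 and 81400 CPM in the control line, with a median of 19770. The 16 neutrophil genes summed to between 237 and 44090 CPM in the methionine line, with a median of 17500, and to between 152 and 77990 CPM in the control line, with a median of 12620. In each of these lists the ranges of the lines overlapped. Control rams SpermRNA468C and SpermRNA400C had squamous sums of 81400 and 75940 CPM, above every methionine ram. So did SpermRNA468C and SpermRNA350C for the neutrophil sum, at 77990 and 44610 CPM. Methionine ram SpermRNA359T had the highest late spermatid sum. Both epithelium and neutrophil sums were lowest in rams SpermRNA382T and SpermRNA485C. Ram SpermRNA468C, highest in both, had a macrophage and pan-leukocyte sum of 2245 CPM. VNN2, of the neutrophil list, had a correlation of −0.94 with PC1, as had KRT4. The neutrophil sum is therefore not a measure of neutrophils alone. The 21 macrophage and pan-leukocyte genes summed to between 204 and 4886 CPM in the methionine line, with a median of 1627, and to between 220 and 19950 CPM in the control line, with a median of 2502, and the highest value, that of control ram SpermRNA350C, stood apart from the second highest, 4886 CPM in methionine ram SpermRNA426T.

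**Figure D2:**
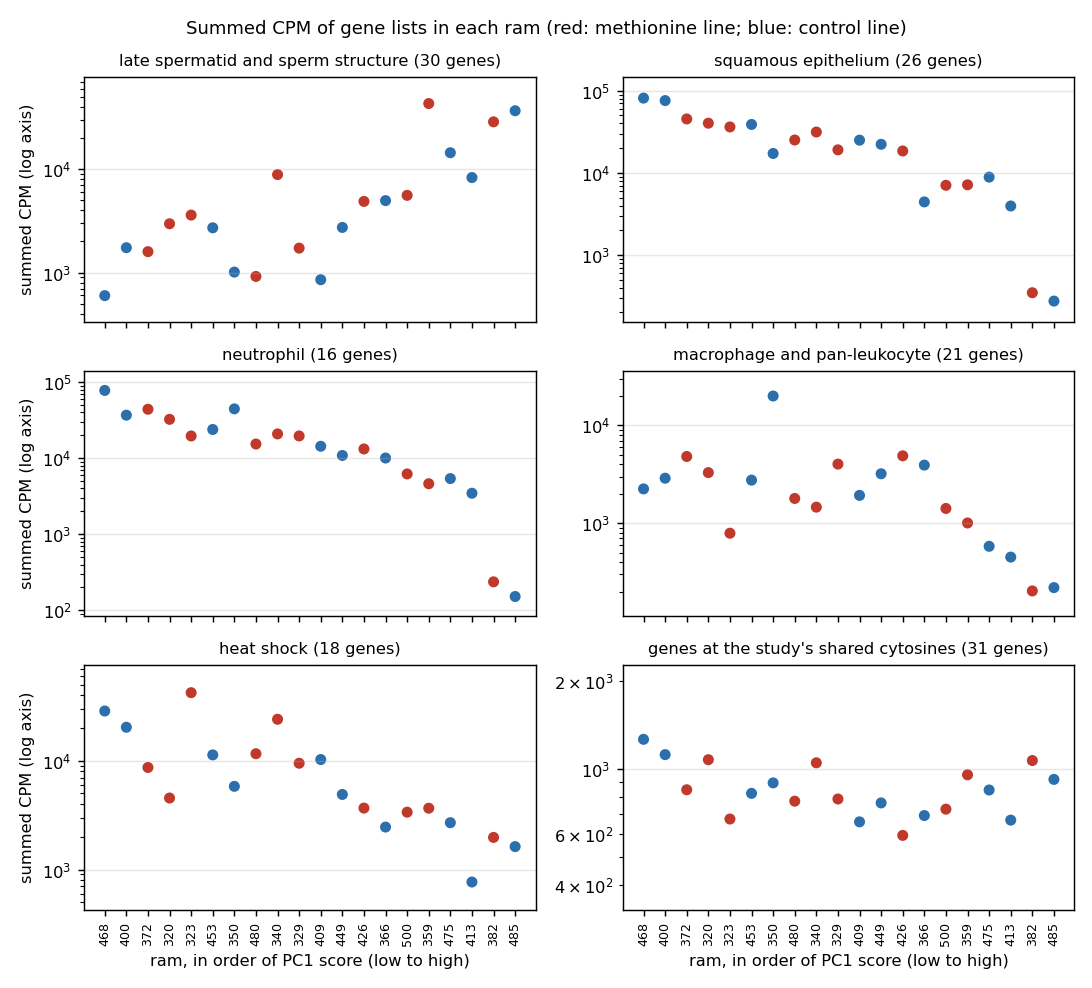
Summed CPM (log y axis) of 6 gene lists in each of the 20 rams, which are ordered on the x axis by PC1 score from low to high and coloured by line. Squamous and neutrophil sums are lowest in rams SpermRNA382T and SpermRNA485C at the right, where late spermatid sums are among the highest, control ram SpermRNA350C holds the highest macrophage and pan-leukocyte sum (19950 CPM), and methionine ram SpermRNA323T the highest heat shock sum (42190 CPM).

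No gene passed the test between the lines. By edgeR's quasi-likelihood test with Benjamini-Hochberg adjustment at 0.05, 0 of 13577 genes were called (0%), with a smallest adjusted p of 0.9998, and 104 genes (0.766%) had an unadjusted p under 0.05, of which 44 were higher and 60 lower in the methionine line. With PC1 as a covariate, the count of called genes was again 0 (0%), with a smallest adjusted p of 0.9998, and 261 genes (1.92%) had an unadjusted p under 0.05, 163 higher and 98 lower. Under RLE size factors in place of TMM the split was 38 higher and 86 lower without PC1, and 122 higher and 148 lower with PC1, while upper-quartile factors gave 100 higher and 105 lower with PC1. With the squamous epithelium and the macrophage and pan-leukocyte sums as covariates in place of PC1, 0 genes were called (smallest adjusted p = 0.9997 by edgeR) and 186 genes (1.37%) had an unadjusted p under 0.05, 113 higher and 73 lower. Under either fit the share of unadjusted p-values below 0.05 was smaller than the 5% that would stand there if p-values were spread evenly. DESeq2's Wald test called 0 genes as well, with 174 and 393 genes at an unadjusted p under 0.05 without and with PC1, and limma-voom with sample quality weights called 0, with 206 and 330. No gene had all 10 rams of one line above all 10 of the other (0%).

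The size of differences that these libraries can resolve was limited by the spread between rams. The biological coefficient of variation was 0.689 within the methionine line and 0.761 within the control line, and 0.727 and 0.515 in the fits without and with PC1. The median standard error of a log2 fold change (methionine over control line) was 0.42 without PC1 and 0.30 with it. For 5555 genes (40.9%) the 95% confidence interval lay wholly within a 2-fold difference in either direction without PC1, and for 10018 genes (73.8%) with PC1. Within a 4-fold difference lay 94.8% and 98.0% of the intervals. The median log2 fold change over all tested genes was −0.05 without PC1 and 0.01 with it, and 42.8% and 50.8% of genes lay above 0. These values are the background against which the gene groups below are read. Of the 27 lists described, the median log2 fold change took the other sign for 24 without PC1 and for 15 with PC1 when some 1 ram was left out.

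In the machinery that writes, reads and removes DNA methylation no gene passed the test. Of 17 tested members 0 were called, 0 had an unadjusted p under 0.05 in either fit, and the median log2 fold change was 0.08 without PC1 and 0.11 with it, with the first value at −0.05 under upper-quartile factors. Log2 fold changes of the members ran from −0.70 to 0.43 without PC1, and the 95% confidence interval lay within a 2-fold difference for 10 of 17 without PC1 and for 15 with it, so that larger differences remain possible for the others. DNMT1, which maintains methylation after replication, had a mean of 19.4 CPM in the methionine line and 15.6 CPM in the control line (log2 fold change 0.31 ± 0.32 SE, unadjusted p = 0.336, and 0.17 without methionine ram SpermRNA359T). The de novo methyltransferase genes DNMT3A and DNMT3B had log2 fold changes of −0.05 ± 0.32 SE and 0.00 ± 0.30 SE. Both 95% confidence intervals lay within a 2-fold difference in either direction. DNMT3L, their catalytically inactive partner in the germ line, stayed under the count minimum, at 0.42 to 4.41 CPM. TET1, TET2 and TET3, the dioxygenases that oxidise methylcytosine, had log2 fold changes of 0.04 ± 0.31, 0.12 ± 0.55 and 0.43 ± 0.44 SE, the last being 0.12 without ram SpermRNA323T. UHRF1, the partner of DNMT1 that binds hemimethylated DNA, had 0.15 ± 0.34 SE.

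The methionine cycle and one-carbon genes, 23 of them tested, likewise had 0 called members, with a median log2 fold change of −0.02 without PC1 and 0.00 with it. MAT2A, the catalytic subunit of the enzyme that makes S-adenosylmethionine outside the liver, averaged 425.5 CPM in the methionine line and 297 CPM in the control line (log2 fold change 0.52 ± 0.74 SE, unadjusted p = 0.485, and 0.15 without methionine ram SpermRNA372T). AHCY, which cleaves S-adenosylhomocysteine, averaged 489 and 499 CPM (−0.03 ± 0.72 SE), and MTR, the methionine synthase, 27.2 and 24.9 CPM (0.12 ± 0.36 SE). MAT2B, the regulatory subunit of the S-adenosylmethionine synthetase, had −0.13 ± 0.48 SE. Standard errors of MAT2A and AHCY were larger than that of the median gene. The summed level of the list ran from 317.6 CPM in ram SpermRNA382T to 2645 CPM in ram SpermRNA468C, rams at opposite ends of PC1. Its mean log2 CPM, by contrast, had a correlation of 0.09 with PC1. One member had an unadjusted p under 0.05: APIP, an enzyme of the methionine salvage pathway, ran from 2.08 to 8.10 CPM in the methionine line, with a median of 6.29, and from 1.96 to 5.27 CPM in the control line, with a median of 3.71. Its log2 fold change was 0.66 ± 0.27 SE (unadjusted p = 0.022), and 0.65 with PC1 (p = 0.016), and the lines overlapped.

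Lists of histone and protein methyltransferase, polyamine and imprinted genes gave the same picture. Of 34 histone and protein methyltransferase genes, 17 lay above 0 and 17 below, with a median log2 fold change of 0.00 without PC1 and −0.01 with it and 0 called. EHMT1, which methylates histone H3 at lysine 9, had 0.39 ± 0.28 SE (unadjusted p = 0.176), and SETD7, a lysine methyltransferase, −0.34 ± 0.26 SE (unadjusted p = 0.207, and −0.20 without control ram SpermRNA400C). Polyamine synthesis draws on decarboxylated S-adenosylmethionine, though not every gene of the polyamine list uses it. The 10 tested polyamine genes had a median of 0.10 without PC1 and 0.14 with it, which became −0.14 without methionine ram SpermRNA359T and 0.03 without ram SpermRNA323T. Among 13 imprinted genes the median was −0.01 without PC1 and 0.09 with it, and the 3 with the smallest p, GRB10, RTL1 and IGF2R, had −0.51 ± 0.41, −0.48 ± 0.39 and −0.30 ± 0.47 SE. Without control ram SpermRNA413C the first 2 values were −0.30 and −0.27. IGF2R had 311 CPM in control ram SpermRNA350C and at most 119 CPM elsewhere, its median was higher in the methionine line (54.4 against 45.7 CPM), and without that ram its log2 fold change was 0.32.

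The genes at or near the cytosines that the study lists as shared by its 3 generations were taken as a group of their own. The list was chosen by the study from the methylation of rams that include these, so it is not an independent choice. Of 31 tested members, 15 lay above 0 and 16 below, 0 were called, and the median log2 fold change was 0.00 without PC1 and −0.01 with it. Their log2 fold changes ran from −0.48 to 0.62 without PC1, with a smallest unadjusted p of 0.248, and from −0.61 to 0.60 with PC1, with a smallest unadjusted p of 0.067. The interval lay within a 2-fold difference for 16 of them without PC1 and for 26 with it. TLL1, a tolloid-like metalloprotease, had the highest value, 0.62 ± 0.68 SE, with means of 28.6 and 18.6 CPM, and −0.02 without methionine ram SpermRNA359T. LOC101120749 had the lowest, −0.48 ± 0.41 SE, with means of 14.5 and 20.2 CPM, and −0.23 without control ram SpermRNA350C. CSGALNACT1, which starts chondroitin sulfate chains, had means of 134 and 136 CPM (−0.02 ± 0.61 SE), and NOD1, an intracellular receptor of bacterial peptidoglycan, 14.8 and 14.2 CPM (0.06 ± 0.27 SE). The summed level of the 31 genes varied less between rams than that of most other lists, from 592 to 1077 CPM in the methionine line and from 659 to 1265 CPM in the control line.

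Sperm genes proper had 0 called members in any list. The 30 late spermatid genes had a median log2 fold change of 0.14 without PC1 and 0.32 with it, 21 of 30 lying above 0 without PC1, and the median without PC1 ranged from −0.25 without ram SpermRNA382T to 0.74 without ram SpermRNA485C, which are the rams at the high end of PC1. The median with PC1 was 0.05 without methionine ram SpermRNA359T, and 0.05 under limma-voom. LELP1 and SPEM1, the latter needed to shed spermatid cytoplasm, had 0.70 ± 0.82 and 0.67 ± 0.80 SE, and TNP1, the transition protein that precedes protamines, −0.81 ± 0.70 SE. The first 2 values became 0.02 and −0.05 without ram SpermRNA382T, and that of TNP1 became −0.26 without ram SpermRNA485C. CCDC168, the most counted gene in 5 libraries, ran from 414 to 33190 CPM in the methionine line and from 298 to 23540 CPM in the control line (0.56 ± 0.92 SE without PC1, and 1.28 with it at an unadjusted p of 0.016). The latter was 0.79 without ram SpermRNA359T (unadjusted p = 0.114), and the former ran from −0.30 without that ram to 1.48 without ram SpermRNA485C. The 10 tested acrosome and egg-binding genes had medians of 0.24 (−0.15 without ram SpermRNA382T) and 0.58 (0.20 without ram SpermRNA359T and under limma-voom), and their leading member SPACA4, an acrosomal membrane protein, ran from 2.02 to 165 CPM in the methionine line and from 4.74 to 44.8 CPM in the control line (1.09 ± 0.66 SE, unadjusted p = 0.110). Its highest value was that of ram SpermRNA323T, without which the log2 fold change was 0.17. SPACA4 did not follow the late spermatid sum. It had 8.46, 2.02 and 4.74 CPM in rams SpermRNA359T, SpermRNA382T and SpermRNA485C, where that sum was high. Ram SpermRNA468C, with the lowest sum, had 38.8 CPM of it. The 14 sperm ion channel genes had medians of 0.02 and 0.08, and HVCN1, the voltage-gated proton channel of sperm, had 0.72 ± 0.42 SE (unadjusted p = 0.097, and 0.41 without ram SpermRNA372T). The 13 sperm energy genes had medians of 0.02 and 0.09, the 18 piRNA pathway genes −0.12 and −0.01, and the 30 axoneme genes −0.08 and −0.07. One axoneme member, the dynein heavy chain DNAH12, is described with the leading genes below.

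Leukocyte and inflammation lists had medians among the lowest, and 1 control ram moved them most. Without PC1 the median log2 fold change was −0.67 over 16 neutrophil genes, 14 of them below 0, −0.58 over 21 interferon response genes, 19 below 0, −0.42 over 19 interleukin 1 and NF-kB genes, 15 below 0, and −0.32 over 21 macrophage and pan-leukocyte genes, 19 below 0. None of these genes was called, and 1 had an unadjusted p under 0.05, the interferon-induced IFI44 (means of 13.5 and 25.8 CPM, −0.94 ± 0.44 SE, p = 0.041). Without control ram SpermRNA468C its log2 fold change was −0.38 (unadjusted p = 0.290), and with PC1 it was −0.65 (unadjusted p = 0.051). Without control ram SpermRNA350C the medians became 0.45, −0.22, 0.20 and 0.35, so that 3 of the 4 took the other sign. Without methionine ram SpermRNA426T the neutrophil and the macrophage and pan-leukocyte medians were −1.10 and −0.64, and −1.01 and −0.62 with PC1. Without the 5 libraries with the lowest total counts they were −1.20 and −0.83. With limma-voom and sample quality weights the 4 medians were 0.02, 0.04, 0.17 and −0.06 without PC1, and 0.21, −0.15, 0.17 and 0.14 with it. Under DESeq2, which replaces outlying counts by default, they were 0.29, −0.70, −0.41 and −0.15 without PC1. With PC1, DESeq2 gave −0.62, −0.49, −0.24 and −0.39, so that its positive neutrophil median was found in 1 of its 2 fits. By edgeR with PC1 they were −0.51, −0.38, −0.18 and −0.31, and in that fit without ram SpermRNA350C they were 0.39, −0.09, 0.17 and 0.19. With the squamous epithelium and leukocyte sums as covariates they were 0.21, −0.20, 0.16 and 0.14, a fit that takes its leukocyte sum from the last of these lists. Control ram SpermRNA350C held the highest value of CD53, a leukocyte tetraspanin, at 1297 CPM, against 322.9 CPM in the next ram, and of TNF, at 1095 CPM, against 113 CPM.

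**Figure D3:**
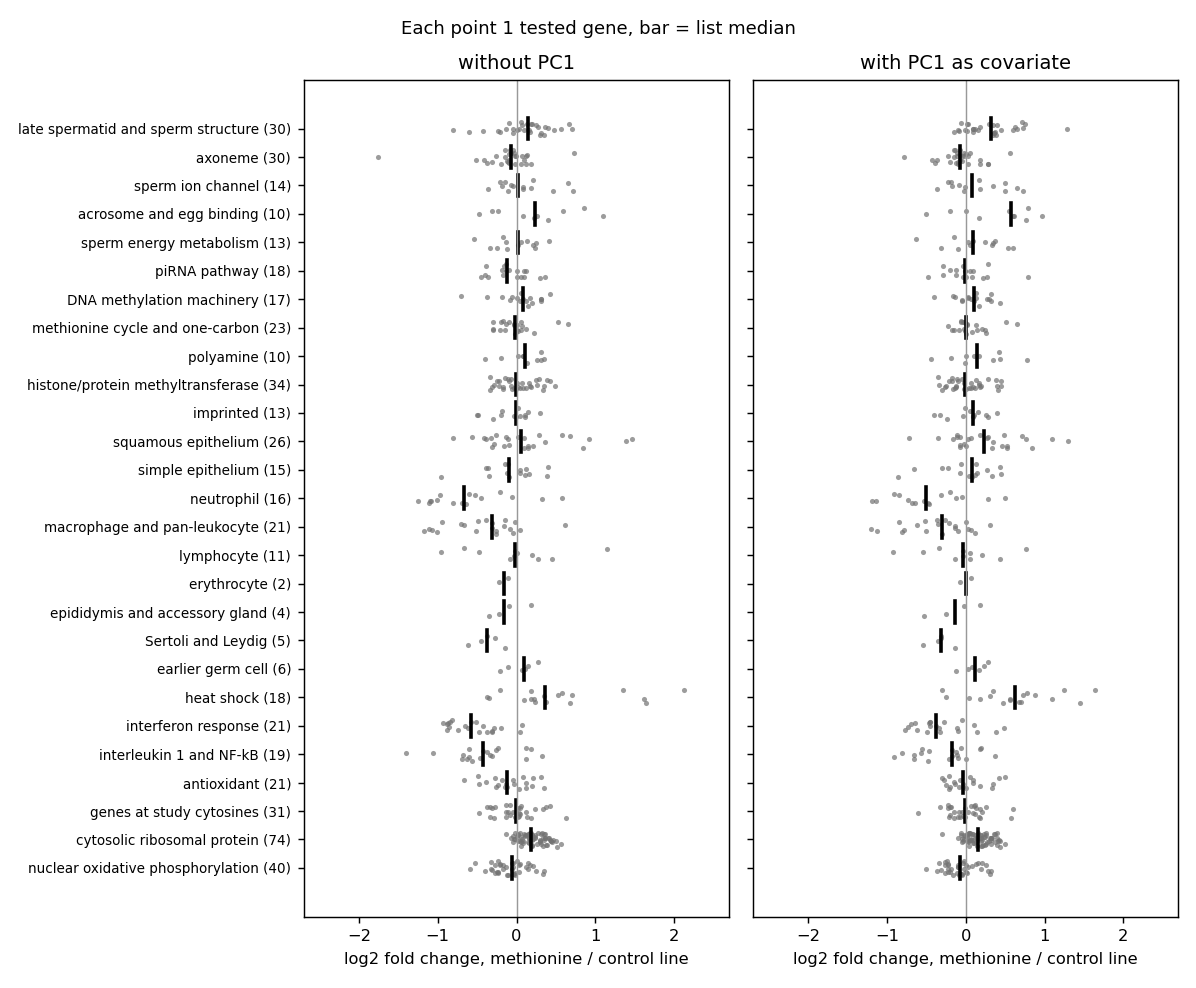
Log2 fold change (methionine over control line, x axis) of each tested gene of 27 lists (y axis, number of genes in parentheses), without PC1 (left) and with PC1 as a covariate (right), with a black bar at the list median. Neutrophil, interferon and leukocyte lists lie to the left (medians −0.67, −0.58 and −0.32 without PC1), heat shock genes to the right (0.36 and 0.62), and the methylation, methionine and study-cytosine lists around 0.

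Heat shock genes lay on the other side, and again 1 ram held the highest values. Of 18 tested members 15 were above 0 without PC1, with a median log2 fold change of 0.36, and 0 were called. The list's summed level ran from 1973 to 42190 CPM in the methionine line, with a median of 6604, and from 767 to 28630 CPM in the control line, with a median of 5355, and the 42190 CPM were those of methionine ram SpermRNA323T. Without this ram the median was 0.02, and with PC1 it was 0.62 over all rams and 0.31 without it. BAG3, a co-chaperone induced by proteotoxic stress, ran from 1.62 to 5058 CPM in the methionine line and from 9.47 to 514 CPM in the control line, with medians of 97.7 and 93.3 CPM (2.13 ± 0.99 SE, unadjusted p = 0.041, and 0.54 without ram SpermRNA323T). HSP90AB1, a cytosolic chaperone, ran from 11.7 to 1885 CPM and from 8.998 to 275 CPM, with medians of 98.3 and 82.0 CPM (1.35 ± 0.77 SE, unadjusted p = 0.089, and −0.01 without ram SpermRNA323T). Medians of the lines lay close together for both genes.

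Among the remaining lists, the 74 cytosolic ribosomal protein genes had 67 members above 0 without PC1, against 42.8% of all tested genes, with a median log2 fold change of 0.19 without PC1 and 0.15 with it. None was called or had an unadjusted p under 0.05, RPS6 (0.44 ± 0.32 SE, and 0.19 without ram SpermRNA372T) having the smallest p, 0.182, and the median without PC1 was −0.04 without methionine ram SpermRNA372T. Ribosomal protein genes have near-identical processed copies, from which their reads may not be told apart. The 40 nuclear oxidative phosphorylation genes had medians of −0.05 and −0.08, and the 21 antioxidant genes −0.13 and −0.04. The 26 squamous epithelium genes had medians of 0.05 and 0.23, which became −0.24 and −0.02 without ram SpermRNA323T. DSC2, a desmosomal cadherin, was their only member at an unadjusted p under 0.05 (1.46 ± 0.69 SE, p = 0.043) and had its highest value, 485.4 CPM, in ram SpermRNA323T, against 60.8 CPM in the next ram, and its log2 fold change was −0.24 without that ram. The 15 simple epithelium genes had medians of −0.10 (0.32 without control ram SpermRNA468C) and 0.08 (−0.07 without ram SpermRNA323T), and the 11 lymphocyte genes −0.02 and −0.03. The lists of testicular somatic and earlier germ cells had few genes over the count minimum: 5 of 16 Sertoli and Leydig genes (medians −0.38 and −0.32) and 6 of 16 earlier germ cell genes (0.09 and 0.12). All 5 Sertoli and Leydig genes lay below 0, with 0 at an unadjusted p under 0.05. Their median stayed between −0.53 and −0.24 without PC1, and between −0.40 and −0.23 with it, when any 1 ram was left out. Levels were low, summing to between 21.3 and 61.0 CPM. For the epididymis and accessory gland 4 of 20 listed genes were tested (−0.16 and −0.14), and for erythrocytes 2 of 9 (−0.17 and 0.00).

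**Figure D4:**
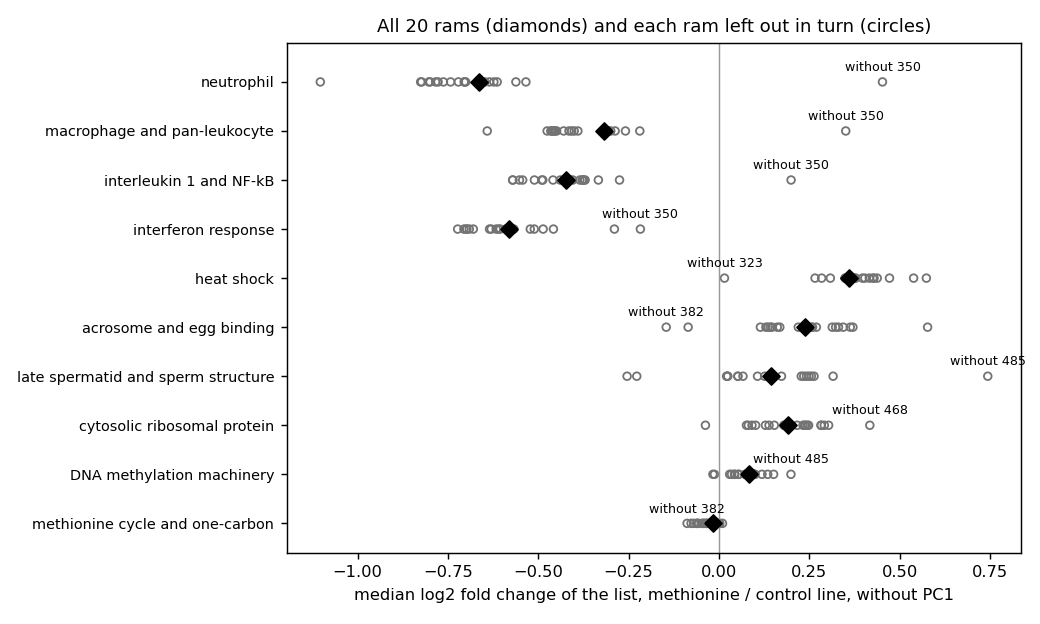
Median log2 fold change (methionine over control line, without PC1, x axis) of 10 gene lists (y axis) over all 20 rams (diamonds) and with each ram left out in turn (circles), the ram with the largest effect being named. Leaving out control ram SpermRNA350C moves the neutrophil median from −0.67 to 0.45, and leaving out methionine ram SpermRNA323T moves the heat shock median from 0.36 to 0.02.

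The genes with the smallest p-values are given as values and not as changes, since none passed the test. Lower in the methionine line without PC1, with the smallest p of all, was BSP1. This gene, which encodes a binder of sperm protein secreted by the seminal vesicles, ran from 0.4 to 19.9 CPM in the methionine line, with a median of 5.36, and from 3.6 to 548 CPM in the control line, with a median of 14.6. The highest value was that of control ram SpermRNA453C, followed by rams SpermRNA366C (82.1 CPM) and SpermRNA449C (45.0 CPM) of the same line, and 8 of 10 methionine rams lay below the control median. Its log2 fold change was −3.34 ± 0.90 SE (unadjusted p = 0.00096, adjusted p = 0.9998 by edgeR), and −1.59 without ram SpermRNA453C (unadjusted p = 0.019). PYY, the peptide YY hormone, ran from 1.2 to 58.3 CPM in the methionine line and from 2.2 to 776 CPM in the control line, again with ram SpermRNA453C highest and ram SpermRNA449C next at 119 CPM. Its log2 fold change was −2.66 ± 0.87 SE, and −1.08 without ram SpermRNA453C (unadjusted p = 0.116). LOC105613767, the current symbol of which is RNASE9 (a ribonuclease A family member of the epididymis) and which was singled out after its values were seen, ran from 1.2 to 8.6 CPM and from 0.9 to 201 CPM (−2.67 ± 0.74 SE, and −1.26 without ram SpermRNA453C). AKR1B1, aldose reductase, ran from 2.6 to 7.2 CPM in the methionine line and from 2.1 to 73.0 CPM in the control line (−1.59 ± 0.49 SE, and −0.82 without ram SpermRNA453C). All 4 kept a lower mean in the methionine line when any 1 ram was left out.

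Ram SpermRNA453C thus stood out for a small set of genes. Tested genes whose level in 1 ram was more than 4-fold (2 log2 units, on log2 CPM with a prior count of 2) above that of every other ram numbered 170 (1.25%), and 5 of these were highest in ram SpermRNA453C: BSP1, PYY, LOC105613767, TOMM70 and AOX1. Of these, AOX1, aldehyde oxidase, had 88.6 CPM there and at most 17.9 CPM elsewhere (−1.14 ± 0.45 SE, and −0.42 without this ram). BSP5 and BSP5L, which lie near BSP1 in RefSeq's annotation of ARS-UI_Ramb_v3.0 and encode related seminal plasma proteins, stayed under the count minimum. They had 110 and 65.3 CPM in ram SpermRNA453C, against at most 14.7 and 7.97 CPM in any other ram, and both were next highest in ram SpermRNA366C. BSPH1, a further binder of sperm gene under the count minimum, had 0.624 CPM in ram SpermRNA453C and was highest in ram SpermRNA413C, at 3.23 CPM. These genes too were singled out after their values were seen. Reads of near-identical copies within this family may not be told apart.

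Other genes among the 10 lowest by p did not rest on that ram. MSX2, a homeobox factor, ran from 1.6 to 6.0 CPM in the methionine line, with a median of 3.56, and from 2.8 to 12.1 CPM in the control line, with a median of 6.4, and all 10 methionine rams lay below the control median. Its log2 fold change was −0.80 ± 0.27 SE (unadjusted p = 0.0065) and stayed between −0.92 and −0.65 with any 1 ram left out. C1QL3, a secreted C1q-like protein, ran from 0.2 to 11.4 CPM and from 2.8 to 29.0 CPM (−1.41 ± 0.50 SE, and between −1.69 and −1.17 with any 1 ram left out). DTD1, a D-aminoacyl-tRNA deacylase, had −0.78 ± 0.31 SE, with 9 of 10 methionine rams below the control median. Levels of these genes were low, so their CPM rest on few counts in the libraries with low totals. DNAH12, a dynein heavy chain of the inner arm, ran from 19.7 to 68.5 CPM in the methionine line and from 18.1 to 924 CPM in the control line, the highest value being that of ram SpermRNA485C. Its log2 fold change of −1.76 ± 0.65 SE was −0.24 without that ram and −0.78 ± 0.52 SE with PC1. IGBP1, a regulatory subunit of PP2A-type phosphatases, was likewise highest in ram SpermRNA485C (146 CPM, against 34.1 CPM in the next ram), with −1.56 ± 0.61 SE and −0.48 without it. CORO2B, a coronin that binds actin, had −1.23 ± 0.48 SE and −0.74 without control ram SpermRNA468C, its highest.

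Genes higher in the methionine line without PC1 rested mostly on ram SpermRNA323T. FKBP4, an HSP90 co-chaperone, had 240 CPM in ram SpermRNA323T, with the other 9 methionine rams at 3.2 to 7.8 CPM and the control rams at 4.4 to 11.2 CPM, and its log2 fold change of 1.98 ± 0.75 SE became −0.54. HSPD1, the mitochondrial chaperonin, had 215 CPM in ram SpermRNA323T and at most 16.6 CPM elsewhere (1.64 ± 0.59 SE, and 0.18 without that ram). FGFR3, a fibroblast growth factor receptor, WNT4, a signalling ligand, GLIS2, a zinc finger factor, and ZNF574, an uncharacterised zinc finger gene, were also highest in ram SpermRNA323T, at 125, 139, 404 and 446 CPM. Their log2 fold changes of 1.92, 1.51, 1.64 and 1.68 became 0.46, 0.24, 0.10 and 0.56 without it. Among the 10 genes with the smallest p in this direction, leaving out 1 ram took 9 to under 50% of their log2 fold change, 7 of them through ram SpermRNA323T.

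**Figure D5:**
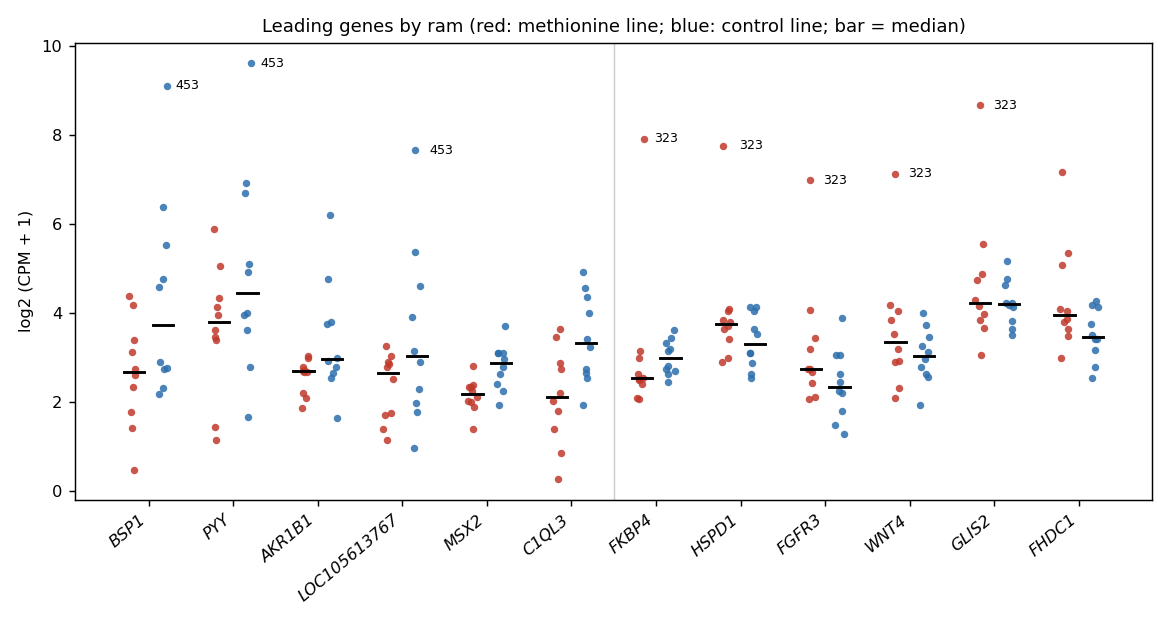
Log2 (CPM + 1) on the y axis of 12 genes among those with the smallest p without PC1, 1 point for each ram, coloured by line, with the median as a bar, and with the number from the title beside points more than 2 log2 units above every other ram of the same line. The 6 genes on the left were lower and the 6 on the right higher in the methionine line. Ram SpermRNA453C lies apart for BSP1, PYY and LOC105613767, ram SpermRNA323T for FKBP4, HSPD1, FGFR3, WNT4 and GLIS2, and for MSX2 no ram does.

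In ram SpermRNA323T there were 42 genes more than 4-fold above every other ram, 4 of them of the heat shock list (HSPD1, HSPB1, HSP90AB1 and BAG3). HSPB1, a small heat shock protein, had 4302 CPM there against 616 CPM in the next ram, and PTGES3, the HSP90 co-chaperone p23, 466.3 CPM against 66.1 CPM. HSPB8, the small heat shock protein that works with BAG3, had 2362 CPM against 339 CPM. These genes were named after their values were seen, and ram SpermRNA329T, of the same F0 sire, had 4.72 CPM of FKBP4, 12.8 CPM of HSPD1 and 236.5 CPM of BAG3, against 240.1, 215.4 and 5058 CPM in ram SpermRNA323T. A larger set, 108 genes, was more than 4-fold above all others in control ram SpermRNA350C. It included 6 macrophage and pan-leukocyte genes (LCP1, TYROBP, LAPTM5, PLEK, FCER1G and CD53), neutrophil genes such as TREM1 and NCF4 and 3 interleukin 1 and NF-kB genes (TNF, IL1RN and IL1R2). CSF1, the macrophage growth factor, had 9163 CPM in this ram against 825 CPM in the next, and CXCR4, a chemokine receptor, 1174 CPM against 151 CPM. Rams SpermRNA485C and SpermRNA453C had 5 such genes each, ram SpermRNA468C had 4, rams SpermRNA372T and SpermRNA449C had 2 each, rams SpermRNA359T and SpermRNA400C had 1 each, and the others had 0. Genes of this kind made up 1.25% of the tested genes, 26.9% of those with an unadjusted p under 0.05 without PC1 (28 of 104) and 11.1% of those with PC1 (29 of 261).

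Other genes higher in the methionine line were highest in another ram. FHDC1, a formin of the Golgi and cilia, ran from 6.9 to 142 CPM in the methionine line, the highest being ram SpermRNA426T, and from 4.8 to 18.3 CPM in the control line (1.39 ± 0.48 SE, and 0.64 without ram SpermRNA426T). CR2, the complement receptor CD21 of B lymphocytes, had 68.8 CPM in methionine ram SpermRNA372T against at most 9.5 CPM elsewhere, and its log2 fold change of 1.39 ± 0.53 SE was 0.24 without that ram. MS4A1, the B cell antigen CD20, was highest in the same ram, at 87.5 CPM against 26.6 CPM in the next (1.14 ± 0.60 SE, unadjusted p = 0.069, and 0.10 without that ram). LOC101105780, a protein-coding gene with no current symbol, singled out after its values were seen, had 181 CPM in control ram SpermRNA449C and at most 22.3 CPM elsewhere (−1.66 ± 0.55 SE, and −0.49 without it).

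With PC1 as a covariate the leading genes were in part others, and fewer of them lost over 50% of their size without 1 ram. Genes that rested on ram SpermRNA323T still did so: FKBP4 had 1.63 with PC1 and −0.54 without that ram, and HSPD1 1.45 and 0.20. AKR1B1, among the leading genes of both fits, had −1.58 with PC1 and −0.81 without ram SpermRNA453C. Of the 10 genes with the smallest p in each direction, leaving out 1 ram took 1 of those higher and 0 of those lower to under 50% of their log2 fold change, against 9 and 5 without PC1. These counts depend on the 50% limit. Of the 10 lower genes, 4 still had their smallest size without ram SpermRNA453C. Without it BSP1 went from −3.18 to −1.78 and PYY from −2.565 to −1.39. Genes among these 10 in this fit and not in the fit without PC1 included C5H19orf25 (0.88 ± 0.26 SE, unadjusted p = 0.0023), PIM2, a survival kinase (0.76 ± 0.24 SE), CNTLN, a centriolar protein (1.22 ± 0.39 SE), PPIG, a nuclear cyclophilin (0.68 ± 0.22 SE), and RNF39 (0.94 ± 0.32 SE). CNTLN ran from 15.02 to 547 CPM in the methionine line and from 7.8 to 380 CPM in the control line, and its log2 fold change without PC1 was 0.71 ± 0.75 SE, and 0.09 without methionine ram SpermRNA359T, its highest. RNF39 ran from 14.6 to 635 CPM in the methionine line and from 6.6 to 663 CPM in the control line. Levels of such genes spread along PC1 far more than between the lines. Lower in the methionine line were ANKRD37, a target of hypoxia signalling (−1.09 ± 0.32 SE, unadjusted p = 0.0020), KIAA1324L (−0.68 ± 0.21 SE) and TMEM173, the innate immune adaptor STING (−1.05 ± 0.39 SE). The snoRNA gene LOC114115456, singled out after its values were seen, had −0.91 ± 0.27 SE. KRT84, a hair keratin, had 1.09 ± 0.36 SE and 0.56 without methionine ram SpermRNA359T. PLA2G4E, a cytosolic phospholipase, had 1.19 ± 0.38 SE and 0.71 without ram SpermRNA323T, and RCN3, a reticulocalbin, 0.75 ± 0.24 SE. BSP1 had the smallest p in this fit as well, with −3.18 ± 0.82 SE (unadjusted p = 0.00069, adjusted p = 0.9998 by edgeR).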

How the data were processed

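RNA of 20 F2 semen samples, 1 library a ram, was sequenced as 100 bp single-end reads on an Illumina NovaSeq. The deposited gene counts were made by the authors, who trimmed reads with Trimmomatic and aligned them with STAR to Oar_rambouillet_v1.0, taking its gene count output. Which strand column was kept is not given in the sources used here, so counts of overlapping and antisense genes may be inexact. Groups came from the labels. Genes under the minimum of 15 counts in over 10 libraries were left out, TMM factors were computed, and the lines were compared by edgeR's quasi-likelihood test (edgeR 4.0.16, R 4.3.3) with Benjamini-Hochberg adjustment at 0.05, over all 13577 genes, without and with the first principal component of log2 CPM (prior count 2) as a covariate. The study's methods state no test of RNA between lines. Component scores and log2 total counts were compared by two-sided permutation tests (100000 resamples). Current symbols came from RefSeq's gene table of ARS-UI_Ramb_v3.0, which matched 12742 of the tested genes.

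Members, gene lists and tests were chosen with earlier results of these data known. Genes named are the 10 of each direction and fit with the smallest p and a symbol other than a LOC number, the measured genes of the study's shared cytosines, 12 genes of DNA methylation and methionine use, and the 3 of each list with the smallest p; others are said to have been chosen after their values were seen or are examples from the lists; some genes that meet this rule are not reported here. Alternatives were RLE and upper-quartile factors, DESeq2 1.42.0, limma-voom (limma 3.58.1), other count minimums, F0 sire as unit or block, other covariates, and leaving out rams. Library totals ran from 805830 to 13138000 counts, and precision is given by standard errors across rams. The planned comparison of methylation at the named genes was not run, since gene coordinates of that build were not used here.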

Additional observations from a re-analysis of the deposited data

Results flagged for a closer look

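Of 298 sets of 10 rams of a line (log2 CPM of a named gene, a list sum, a component score or log2 total counts, in 1 line), 46 had a highest or lowest ram whose gap to its neighbour, as a share of the range of the line, exceeded Dixon's critical value for 10 samples. Chance flags about 1 in 20, or 14.9 sets, but many of these genes were chosen for a small p and LOC101105780 was singled out after its values were seen, so that the 2 counts cannot be set against each other. The values below are those shares, and no cause was tested.

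Methionine ram SpermRNA323T stood above its line for FKBP4 (0.807), HSPD1 (0.747), DSC2 (0.593), FGFR3 (0.580), WNT4 (0.574) and GLIS2 (0.551). Control ram SpermRNA350C stood above its line for NKG7 (0.552), a granule protein of cytotoxic lymphocytes, and IL1R2 (0.498), the decoy interleukin 1 receptor. Control ram SpermRNA453C stood above its line for AOX1 (0.498), SpermRNA485C for DNAH12 (0.579), SpermRNA449C for LOC101105780 (0.640) and NANOS3 (0.496), SpermRNA475C for KRT18 (0.507) and SpermRNA468C for ATP5PB (0.618). Methionine ram SpermRNA372T was high for CR2 (0.636).

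The same ram lay below its line for BRINP3 (0.583), CAP2 (0.587), CNTNAP2 (0.507), NOD1 (0.498), SVEP1 (0.509), TDRD6 (0.510), RTL1 (0.494), WT1 (0.619) and SOD3 (0.578). The 2 rams at the high end of PC1 lay below their lines for the summed squamous epithelium genes, with 0.618 in SpermRNA382T and 0.469 in SpermRNA485C, and for SAT1, which acetylates polyamines, with 0.647 and 0.607. SpermRNA382T was also low for RNF39 (0.514), CSGALNACT1 (0.469), AHCY (0.527), CLDN3 (0.595), TNF (0.486), IL1RN (0.678), IL1R2 (0.491) and LOC101105780 (0.575), and SpermRNA485C for TMEM173 (0.567) and CRISP3 (0.490). Control ram SpermRNA400C was low for PIWIL4 (0.506), LTF (0.522) and FSHR (0.552), and SpermRNA449C for CR2 (0.484) and LPAR1 (0.474). SpermRNA413C, the library with the lowest total count, was low for CTCF (0.568) and RPL22 (0.622), and SpermRNA426T, with the next lowest, for RPL22 (0.488).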

How the results depend on the processing

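No gene was called by any tool, scaling, filter, covariate or set of rams tried, without or with PC1, and the PC1 difference between lines stayed between −0.34 (without SpermRNA382T) and 0.17 SD units (without SpermRNA485C). Genes at an unadjusted p under 0.05, of which there were 104 without PC1 and 261 with it, numbered 174 and 393 under DESeq2, 206 under limma-voom without PC1, 715 and 880 with no filter (27658 genes), 24 and 70 with 15 counts required in all 20 libraries (4796 genes), 147 under limma-voom with the correlation within F0 sires estimated (with PC1), and 198 and 158 without SpermRNA323T, SpermRNA372T, SpermRNA453C and SpermRNA485C. Leaving out 1 ram gave 76 to 168 and 203 to 396 such genes, both highest without SpermRNA400C. A block on pairs of consecutive F0 sire numbers gave 50 and 183, and that these are the twins is an assumption. FKBP4 had −0.56 under DESeq2 without PC1, and −0.47 and −0.49 without the 4 rams. When 1 ram was left out it had between −0.54 and 2.12 without PC1 and between −0.54 and 1.91 with PC1. DNAH12 had 0.12 and 0.13 without the 4 rams, IGBP1 0.013 under limma-voom, and KRT84 between −0.0091 and 1.51 without PC1 when 1 ram was left out. The lymphocyte median was −0.46 with 15 counts required in all libraries, where fewer of its genes were tested. Other causes were not tested. Leaving out 4 rams, the 2 rams farthest out on PC1 or the 5 libraries with the lowest total counts, and robust estimates in edgeR, were chosen after seeing the data. Alternatives for methylation at the named genes were not run. Low total counts limit mostly low genes such as MSX2, which had 2 counts in its lowest library.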

Other observations

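AQP8, a water channel of epithelia and spermatids, had the smallest p under DESeq2, which replaces outlying counts by default, without PC1 (log2 fold change −1.64, unadjusted p = 1.49e-05, Benjamini-Hochberg adjusted p = 0.202), and was chosen after its values were seen. It ran from 5.53 to 113 CPM in the methionine line, with a median of 8.54, and from 5.08 to 93.3 CPM in the control line, with a median of 21.6. The highest values were those of SpermRNA323T and SpermRNA400C, 1 in each line, and the other 9 methionine rams had at most 12.8 CPM. DESeq2 with PC1 gave AQP8 a log2 fold change of −0.58 (unadjusted p = 0.224, adjusted p = 0.998). By edgeR without PC1 its log2 fold change was −0.52 ± 0.57 SE, with an unadjusted p of 0.370. Summing the counts of the 2 rams of a sire gave −0.27 without PC1 (unadjusted p = 0.706 by edgeR). The block on consecutive F0 sire numbers gave −0.93 (unadjusted p = 0.044 by edgeR), and limma-voom with the correlation within sires estimated gave −0.95 (unadjusted p = 0.041). Adjusted p by those 3 fits was between 0.9997 and 0.9999. Ram SpermRNA323T decided the edgeR value: without it AQP8 had the smallest unadjusted p of all genes, with −1.65 ± 0.41 SE (unadjusted p = 0.00047) without PC1 and −1.54 ± 0.35 SE (unadjusted p = 0.00018) with PC1, and adjusted p of 0.9998 and 0.9999 by edgeR. Without control ram SpermRNA400C the log2 fold change was −0.07 without PC1 and −0.29 with it. It was again the gene with the smallest p without SpermRNA323T, SpermRNA372T, SpermRNA453C and SpermRNA485C, with −1.92 ± 0.44 and −1.67 ± 0.41 SE. The lines overlapped, and no test passed its threshold.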
